A study of Caenorhabditis elegans with 8 samples.

Results

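Aspartyl proteases are acid-active enzymes that cut proteins with a pair of aspartate residues in the active site, and cathepsin D of the mammalian lysosome is the best known of them. In *C. elegans* they are the products of the *asp* genes. Such enzymes are generally made as inactive precursors and activated by acid, and in the nematode they are known for breaking down protein in the lysosomes and lumen of the intestine and for their part in necrotic cell death. The 10 genes described here are *asp-1*, *asp-2*, *asp-3*, *asp-4*, *asp-5*, *asp-6*, *asp-10*, *asp-13*, *asp-14* and *asp-17*, out of 46928 genes in the count table. They were chosen by name, with the differences between UA and control in these same libraries already known and *asp-17* as the gene the group was built around. The UA-against-control values of the 10 genes are therefore given as a description, without p-values. All 10 genes passed the filter on low counts, which 13720 genes of the table passed.

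The study asked how Urolithin A (UA), a metabolite that gut bacteria make from dietary ellagitannins, changes gene expression in the nematode. It also measured proteins, and reported higher levels of ASP-3, ASP-12 and HRG-7, the product of *asp-10*, with UA. Only RNA is described here. Whole, age-synchronized wild-type N2 animals, fed *E. coli* OP50, were sampled as 4 populations grown with 50 μM UA and 4 control populations without it, and no mutant or transgene was involved. The description deposited with the data has UA given from the L4 larval stage until day 4 of adulthood, whereas according to the methods they were collected on day 1 of adulthood. Each library holds the RNA of a population, so that a lower level can come from fewer cells of a type or from less RNA per cell, which cannot be told apart here.

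Between 41890058 and 43055719 counts were assigned to genes in each library, and the 10 genes together took 0.445% to 0.598% of them in UA libraries and 0.478% to 0.696% in control libraries. Levels are given as CPM, counts scaled to a common library size with the TMM method. Replicates 1 and 2 of both conditions stood apart from replicates 3 and 4 in these data, a split that the labels do not name, so values are also given within each set of replicates. Markers of intestine, body wall muscle, neurons, germline and oocytes were detected, except that 1 of the 5 germline markers listed, *sycp-1*, was not matched to a gene. Of the 4 sperm markers, *msp-3* had no counts in any library. The study's thresholds were a fold change over 1.2 with a p below 0.05 before adjustment. Among all the markers, *elt-2* of the intestine, *unc-64* of neurons and *spe-11* of sperm were higher with UA at these thresholds, and *col-19* of the hypodermis was lower. Over all genes tested, 4.12% were higher and 1.55% lower. In the same lists, 6 intestinal, 4 neuronal, 1 sperm and 1 hypodermal marker were tested and did not pass. No marker was called at an adjusted p under 0.05, and *spe-11* had only 0.571 CPM in UA and 0.140 CPM in control on average. The summed level of the hypodermal markers was 55.5 to 103 CPM in UA and 82.4 to 121 CPM in control, and that of the sperm markers was 0.979 to 1.18 CPM in UA and 0.578 to 0.791 CPM in control. Their part in the values below was not tested.

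Of the 10 genes, 7 lie on chromosome V and 3 on chromosome X of the WBcel235 assembly, with the same coordinates in the count table and in the Ensembl annotation of that assembly. *asp-17* (CELE_Y39B6A.24) is on the reverse strand of chromosome V from 19035723 to 19037322, with 2 exons and a coding sequence of 1173 bases. *asp-1* (CELE_Y39B6A.20), a single-exon gene, lies on the same strand from 19049562 to 19050752. Between them sit *asp-16* and *asp-15*, again on the reverse strand, so that 4 *asp* genes share 15.03 kb with no other protein-coding gene among them. A second group of 4 spans 8.25 kb of chromosome V. It runs from *asp-6* (CELE_F21F8.7, reverse strand, 8267511 to 8268937) through *asp-12* to *asp-5* (CELE_F21F8.3, forward strand, 8272385 to 8274044) and the pseudogene *asp-11*. *asp-13* (CELE_F28A12.4, 8641602 to 8643193), *asp-2* (CELE_T18H9.2, 9203077 to 9204734) and *asp-10* (CELE_C15C8.3, 12742041 to 12744171), which the RefSeq table lists as *hrg-7*, stand alone on chromosome V. *asp-14* (CELE_K10C2.3, 6444185 to 6446664), *asp-3* (CELE_H22K11.1, 6791064 to 6792709) and *asp-4* (CELE_R12H7.2, 13218985 to 13221462) are on chromosome X. No other gene overlaps 7 of the 10, and *asp-2*, *asp-4* and *asp-10* each overlap 1 gene on the opposite strand. The use of strand in the counting is not given in the sources used here, so reads of these 3 genes could hold some of their partners. How reads matching several *asp* copies were counted is not given either.

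**Figure D1:**
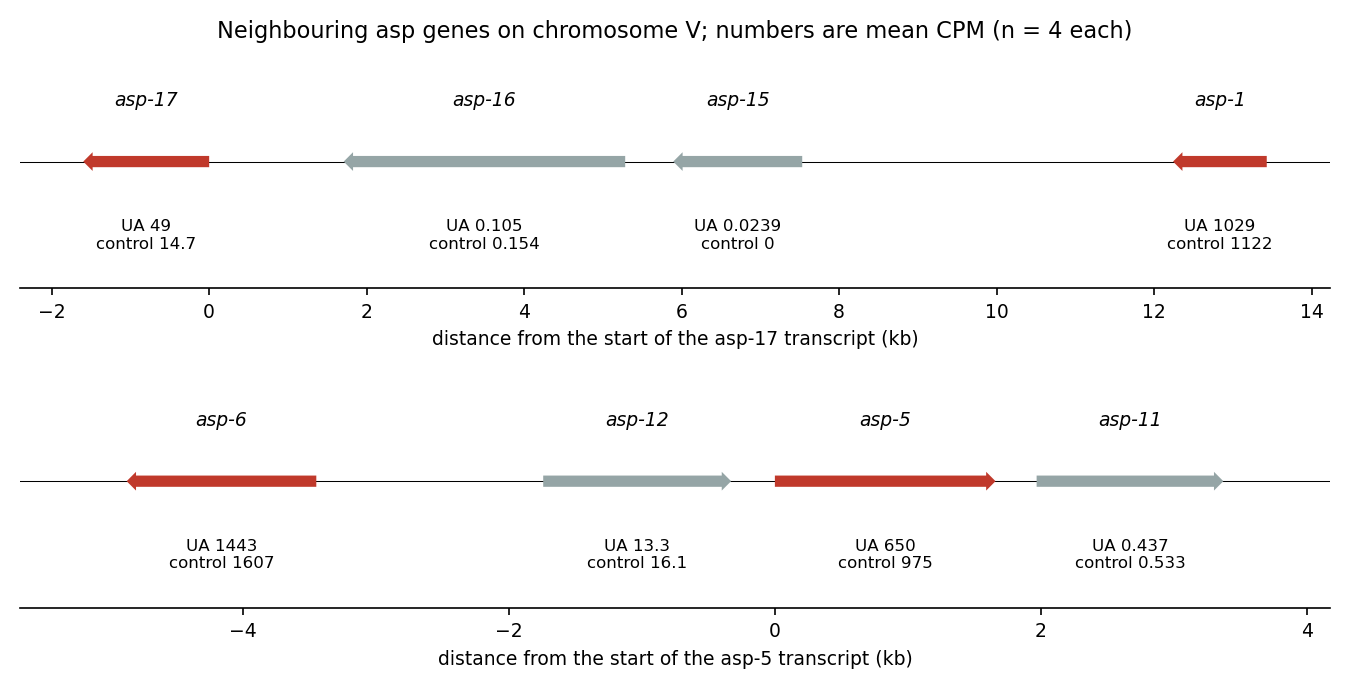
Positions of neighbouring *asp* genes on chromosome V, drawn to scale as the distance in kb from the start of the *asp-17* transcript (top) and of the *asp-5* transcript (bottom). Arrows give the direction of transcription, red for the genes described here and grey for other *asp* genes, and the numbers are mean CPM in 4 UA and 4 control libraries. *asp-17* and *asp-1* flank *asp-16* and *asp-15*, which had at most 0.154 CPM on average in either condition.

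*asp-17* was the member with the largest difference between UA and control. Its CPM was 52.9, 55.4, 41.4 and 46.3 in UA replicates 1 to 4, against 11.9, 12.9, 20.2 and 13.7 in control replicates 1 to 4. The lowest UA library, replicate 3, lay well above the highest control library, also replicate 3, with no overlap. The counts behind these values ran from 1720 to 2400 in UA libraries and from 511 to 840 in control libraries. Means were 49.0 ± 6.35 CPM in UA and 14.7 ± 3.78 CPM in control (SD, n = 4 each), a 3.34-fold higher level with UA (log2 fold change 1.74, standard error 0.16). Within *asp-17*, the higher UA libraries were replicates 1 and 2, and the highest control library was replicate 3. The log2 fold change was thus 2.14 (standard error 0.08) among replicates 1 and 2 and 1.37 (standard error 0.17) among replicates 3 and 4. The neighbours in between were near the floor of detection. *asp-16* had 2 to 10 counts per library, and *asp-15* had 2 counts in each of UA replicates 3 and 4 and none in the other 6 libraries. *asp-1*, at the far end of the group, is known as a cathepsin D-like protease of intestinal lysosomes. It was 1029 ± 195 CPM in UA and 1122 ± 391 CPM in control (SD, n = 4 each).

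*asp-14* and *asp-5* were lower with UA. *asp-14* had 20.5, 20.2, 36.3 and 32.4 CPM in UA replicates 1 to 4, against 48.4, 42.02, 86.6 and 95.5 CPM in control replicates 1 to 4. Each UA library lay below the control libraries, although UA replicate 3 came close to control replicate 2. Its mean was 27.4 ± 8.26 CPM in UA and 68.1 ± 26.8 CPM in control (SD, n = 4 each), a log2 fold change of -1.32 (standard error 0.29). *asp-5* was 497, 533, 773 and 797 CPM in UA replicates 1 to 4, against 817, 817, 1127 and 1139 CPM in control replicates 1 to 4. UA and control libraries of *asp-5* did not overlap, but UA replicate 4 at 797.3 CPM was just under control replicate 1 at 816.8 CPM. The log2 fold change of *asp-5* was -0.58 (standard error 0.18), a level 33.3% lower with UA. *asp-6*, transcribed the other way beyond *asp-12*, was 1443 ± 221 CPM in UA and 1607 ± 294 CPM in control (SD, n = 4 each) and overlapped between the conditions. Within each library, the level of *asp-5* per kb of exon was 0.412 to 0.497 of that of *asp-6* in UA and 0.592 to 0.648 of it in control.

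*asp-4* was the fourth gene whose UA and control libraries did not overlap. With *asp-3* it is known as an executioner of necrotic neuronal death downstream of calcium and calpains. Its CPM was 425, 409, 458 and 487 in UA replicates 1 to 4, against 401, 380, 374 and 378 in control replicates 1 to 4. The gap was small, with UA replicate 2 at 409.1 CPM and control replicate 1 at 401.3 CPM, and the level was 16.02% higher with UA (log2 fold change 0.21, standard error 0.06). *asp-3* had 834, 964, 1285 and 1245 CPM in UA replicates 1 to 4, against 1073, 928, 1580 and 1456 CPM in control replicates 1 to 4. The ranges of *asp-3* overlapped, at a log2 fold change of -0.22 (standard error 0.19), whereas those of *asp-4* were separate.

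The remaining 5 genes overlapped between UA and control. Besides *asp-1* (log2 fold change -0.13, standard error 0.23) and *asp-6* (-0.16, standard error 0.14), these were *asp-2*, *asp-10* and *asp-13*. *asp-10* encodes HRG-7, a protein secreted by the intestine that signals heme status to neurons, and was 48.3 ± 4.28 CPM in UA and 51.1 ± 5.48 CPM in control (SD, n = 4 each). *asp-2* was 293 ± 51.7 CPM in UA and 285 ± 58.4 CPM in control (SD, n = 4 each), the smallest difference of the 10 at a log2 fold change of 0.04 (standard error 0.16). *asp-13* was 171 ± 47.4 CPM in UA and 189 ± 59.5 CPM in control (SD, n = 4 each), with a log2 fold change of -0.14 (standard error 0.24).

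**Figure D2:**
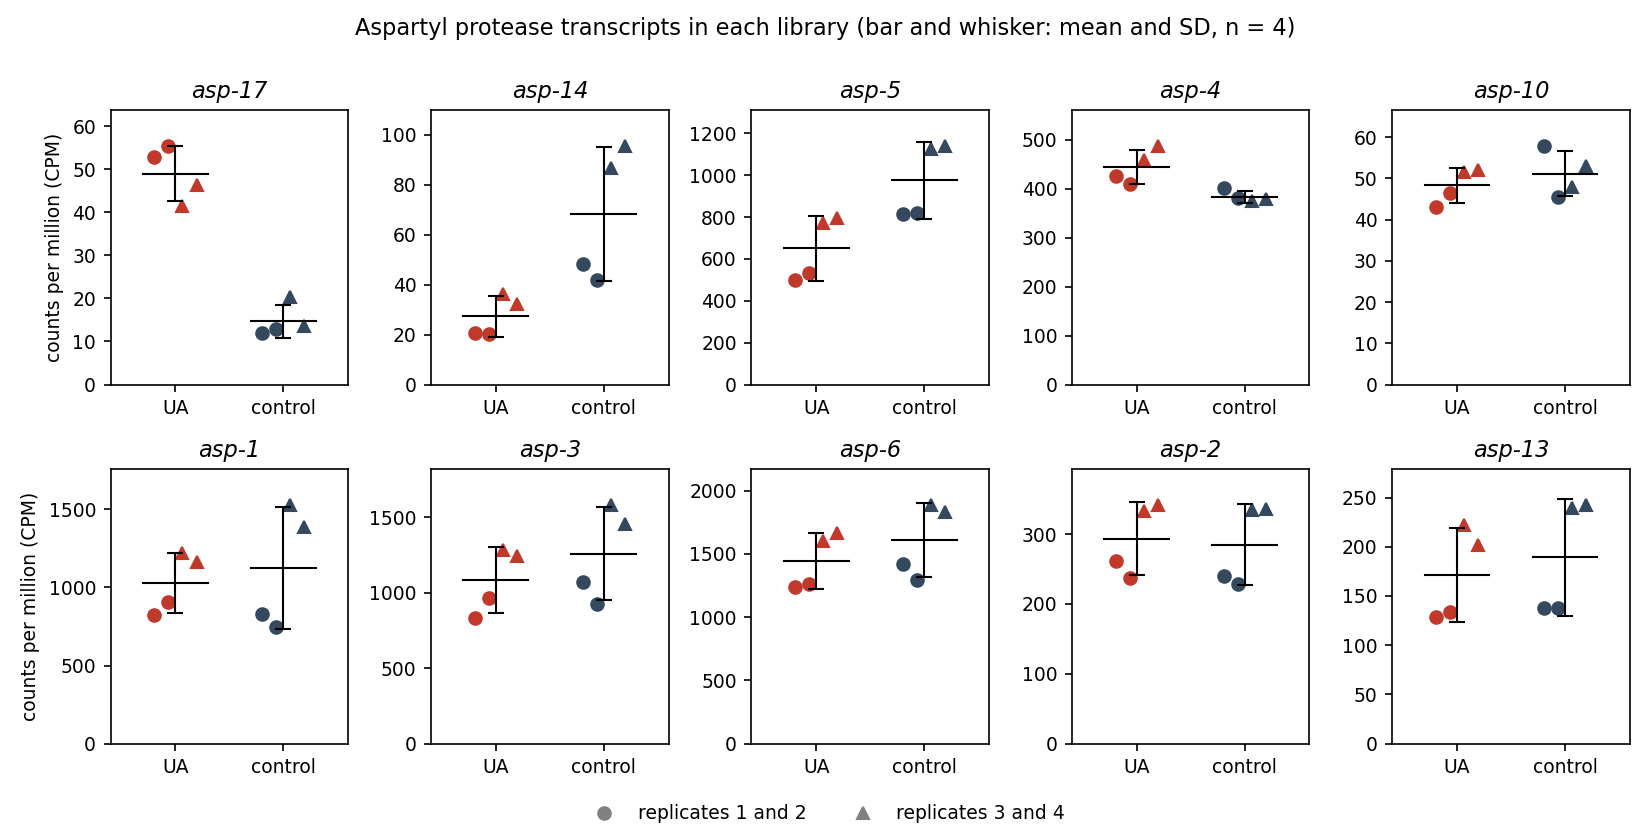
CPM of each of the 10 genes in each library, UA left and control right, with circles for replicates 1 and 2 and triangles for replicates 3 and 4. Lines and whiskers are the mean and SD of 4 libraries. *asp-17* lies between 41.4 and 55.4 CPM in UA and between 11.9 and 20.2 CPM in control, whereas in most other genes the triangles lie above the circles in both conditions.

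At the study's thresholds, edgeR's quasi-likelihood test called 3 of the 10 genes, where it called 5.67% of all genes tested. *asp-17* was the 1 called higher, against 4.12% of all genes, and *asp-5* and *asp-14* were the 2 called lower, against 1.55%. The genes were gathered with this contrast in view, so nothing is read from these shares. At an adjusted p under 0.05, *asp-17* was called, against 0.0948% of all genes. The UA and control libraries were fully separated in 4 of the 10 genes and in 4.78% of all genes. The median log2 fold change was -0.13 over the 10 genes and 0.00 over all genes tested, and 7 of the 10 values were negative. In a fit with the replicate number as a block, these 3 genes were again called at the study's thresholds (7.97% of all genes), and all 3 were also called at an adjusted p under 0.05 (0.838% of all genes). Without *asp-17*, the summed share of the other 9 genes was 0.519% ± 0.0837 of all counts in UA and 0.589% ± 0.113 in control (SD, n = 4 each).

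Many of the 10 genes also differed in level between the sets of replicates. Since the sets were recognized from the data, their levels are described without a test. *asp-1* averaged 1325 CPM in replicates 3 and 4 and 826 CPM in replicates 1 and 2, with all 4 libraries of replicates 3 and 4 above all 4 of replicates 1 and 2. This full separation by set was seen in 5 of the 10 genes, *asp-1*, *asp-2*, *asp-3*, *asp-6* and *asp-13*, and in 8.76% of all genes tested. The ratio of the set means was highest in *asp-14*, at 1.91, and in *asp-13*, at 1.68. *asp-4* (1.05), *asp-10* (1.06) and *asp-17* (0.914) had set means close to each other. The summed CPM of the 7 intestinal markers moved with the set too. It was 364 and 343 in UA replicates 3 and 4, against 393 and 387 in control replicates 3 and 4, and 305 and 315 in UA replicates 1 and 2, against 265 and 240 in control replicates 1 and 2. This sum was thus above control with UA in replicates 1 and 2 and below it in replicates 3 and 4. Most of the sum came from *act-5* (122 CPM in UA and 107 CPM in control on average) and *vha-6* (112 and 122 CPM). Single markers could differ from it. *elt-2* was higher in every UA library than in any control library. *ges-1* was 31.1 ± 1.02 CPM over the 4 control libraries of both sets (SD). Other single markers were not compared by set. The part of the intestinal markers in the levels of the *asp* genes was not tested.

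The mean of *asp-1* had the order of the summed intestinal markers within the sets, but UA replicate 1 was just under control replicate 1. It was 824 and 904 CPM in UA replicates 1 and 2, against 830 and 747 CPM in control replicates 1 and 2, and 1224 and 1164 CPM in UA replicates 3 and 4, against 1527 and 1386 CPM in control replicates 3 and 4. Its log2 fold change was 0.14 (standard error 0.07) in replicates 1 and 2 and -0.29 (standard error 0.07) in replicates 3 and 4. Separate fits called 3 of the 10 genes in replicates 1 and 2 (11.8% of all genes) and 6 of the 10 in replicates 3 and 4 (5.55% of all genes) at the study's thresholds. *asp-5*, *asp-14* and *asp-17* were called in both sets, in the same direction. Both sets were part of the contrast known when the genes were chosen, so this is a description and not a replication. *asp-1* and *asp-3*, lower with UA, and *asp-4*, higher with UA, were added in replicates 3 and 4.

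Whether the UA effect differed between the sets was tested with an interaction term in edgeR's quasi-likelihood test of all 8 libraries. The sets were recognized from these same libraries, so the p-values of this term are not those of sets named in advance. None of the 10 genes passed an adjusted p under 0.05 (0.0802% of all genes did), and 3 of the 10 had an unadjusted p under 0.05 (8.55% of all genes). These were *asp-1*, with a difference of -0.42 between the log2 fold change of replicates 3 and 4 and that of replicates 1 and 2 (standard error 0.11, adjusted p = 0.231 by edgeR), *asp-17* (-0.76, standard error 0.21, adjusted p = 0.28 by edgeR) and *asp-4* (0.24, standard error 0.08, adjusted p = 0.393 by edgeR). DESeq2 called 2 of the 10, *asp-1* and *asp-17*, for the same term, and edgeR did so as well without the filter on low counts or without control replicate 4.

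**Figure D3:**
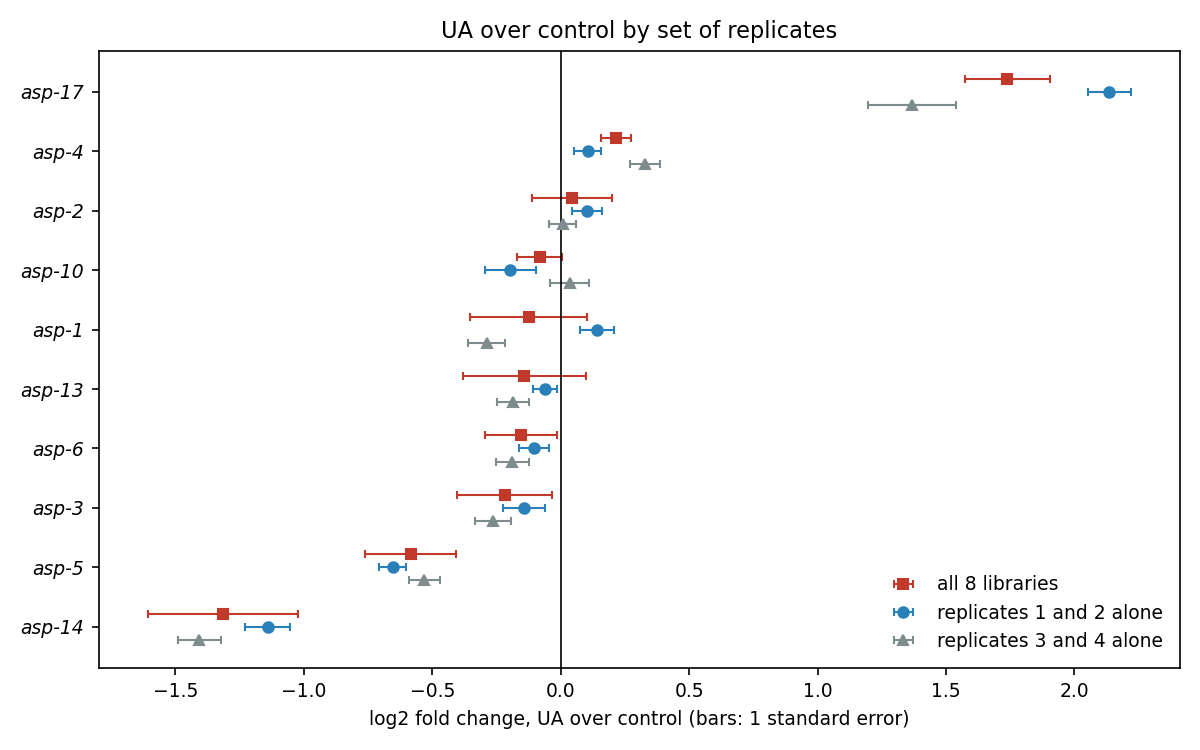
Log2 fold change of UA over control for the 10 genes, from all 8 libraries (red squares), replicates 1 and 2 alone (blue circles) and replicates 3 and 4 alone (grey triangles), with bars of 1 standard error. *asp-17* is on the right of 0 and *asp-5* and *asp-14* on the left in all 3 fits, while *asp-1* is at 0.14 in replicates 1 and 2 and at -0.29 in replicates 3 and 4.

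The 10 genes covered a wide range of abundance. Levels of different genes were compared as CPM per kb of exon, averaged over the 8 libraries. *asp-6* was the most abundant at 1196 CPM per kb, followed by *asp-1* (903), *asp-3* (801) and *asp-5* (655), and all 4 were among the 174 most abundant of the genes tested. The ranges of neighbours in this order overlapped over the 8 libraries, but *asp-6* was above *asp-1* in all 8, *asp-1* above *asp-3* in 6 and *asp-3* above *asp-5* in 7. *asp-4* (284), *asp-2* (209) and *asp-13* (151) formed the middle, where the ranges of *asp-4* and *asp-2* did not overlap and those of *asp-2* and *asp-13* did. *asp-1*, *asp-3* and *asp-6* alone made up 64.1% to 69.1% of the counts of the 10 genes in every library.

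At the low end of the members, *asp-14* (39.6 CPM per kb), *asp-10* (36.0) and *asp-17* (26.3) overlapped, and their order depended on the condition. The level of *asp-17* was 1.14 to 2.73 times that of *asp-14* in the UA libraries and 0.143 to 0.306 times in the control libraries. It was 0.916 to 1.40 times the level of *asp-10* in UA libraries and 0.234 to 0.481 times in control libraries. *asp-17* took 0.687% to 1.22% of the counts of the 10 genes in UA libraries and 0.198% to 0.280% in control libraries.

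Among the 9 other genes with *asp* names, 3 passed the filter on low counts. *asp-12* was 13.3 ± 6.52 CPM in UA and 16.1 ± 7.07 CPM in control (SD, n = 4 each). *asp-8*, at 0.723 ± 0.234 CPM in UA and 1.48 ± 0.63 CPM in control (SD, n = 4 each), had a log2 fold change of -1.03 (standard error 0.35) and was called lower at the study's thresholds, though its UA and control ranges overlapped. The pseudogene *asp-11* was 0.437 ± 0.309 CPM in UA and 0.533 ± 0.322 CPM in control (SD, n = 4 each). *asp-7*, *asp-9*, *asp-15*, *asp-16*, *asp-18* and *asp-19* had at most 44 counts in the 8 libraries together and were not tested. The highest value among these 9 genes was 25.6 CPM, for *asp-12* in control replicate 4.

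**Figure D4:**
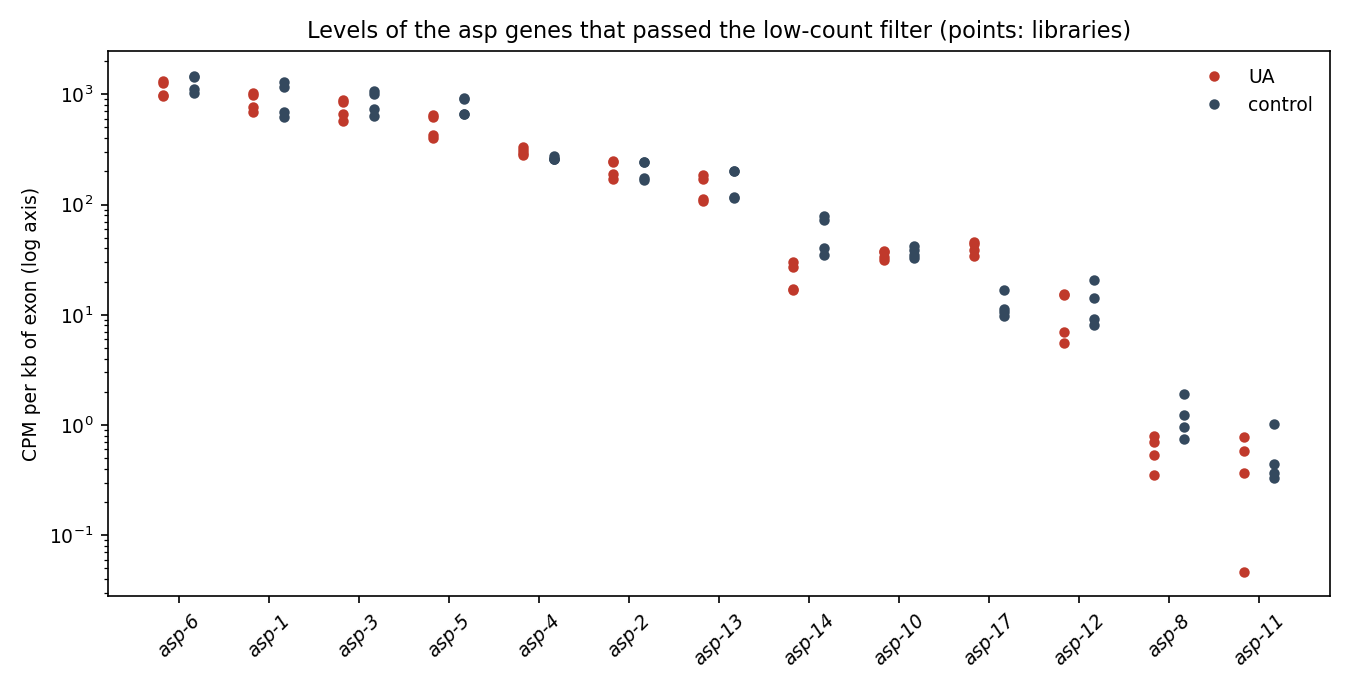
CPM per kb of exon, on a log axis, of the 13 *asp* genes that passed the low-count filter, ordered by their mean over the 8 libraries, with UA points left and control points right. *asp-17* and *asp-14* cross between the conditions, and *asp-12*, *asp-8* and *asp-11* lie below the 10 genes described, with *asp-12* overlapping *asp-17* in control.

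The genes whose profile was most like that of *asp-17* were sought over all 8 libraries, as the smallest root mean square difference of log2 CPM after centring each gene on its own mean, among 10935 other genes with a mean of at least 1 CPM. The nearest was *clec-169*, a C-type lectin gene by name, at 0.24, with 9.33 CPM in UA and 3.48 CPM in control on average. It was followed by *cyp-13A5* (0.26) and *cyp-13A7* (0.31), both cytochrome P450 genes, and by C40H1.8 (0.32) and C29F7.2 (0.35). None of the other 9 *asp* genes described was close. The nearest of them, *asp-4*, was at 0.82, with 1065 genes nearer to *asp-17*, and *asp-14* was at 1.59. This distance takes in the difference between UA and control, which was known when the *asp* genes were chosen around *asp-17*. The log2 fold change was 1.74 in *asp-17* and 1.07 (C29F7.2) to 1.89 (*cyp-13A5*) in the nearest genes listed, against 0.21 in *asp-4*. The distances of the other *asp* genes are therefore a description, and likeness apart from the UA difference was not tested.

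Other genes of the same pathways were counted at the study's thresholds. The lists were chosen with earlier results of these data known, so nothing is read from their counts beside the shares over all genes. Of 10 genes that act with *asp-3* and *asp-4* in calcium-dependent necrosis, among them the calreticulin gene *crt-1*, the ER calcium channels *itr-1* and *unc-68* and the calpains *clp-1* and *tra-3*, none passed in either direction, and the lowest unadjusted p by edgeR was 0.169. Their median log2 fold change was 0.00. The paper reports *itr-1* as upregulated in its own transcriptome analysis and by qRT-PCR. In the fit used here its log2 fold change was 0.16 (standard error 0.11), and the reason for this difference was not tested. Among 12 cysteine cathepsin genes, the other main class of lysosomal proteases, 3 were higher with UA (4.12% of all genes were) and 9 did not pass, with a median of 0.22. The 3 were *cpr-9* (608 ± 33.0 CPM in UA and 450.3 ± 51.3 CPM in control, SD, n = 4 each), *cpr-4* (779 ± 130 CPM in UA and 616 ± 94.3 CPM in control) and *cpr-3* (58.2 ± 19.04 CPM in UA and 38.0 ± 2.05 CPM in control), with adjusted p = 0.121, 0.597 and 0.437 by edgeR. With the replicate block, *cpr-9* (adjusted p = 0.0159 by edgeR) and *cpr-4* (0.0309) were called at an adjusted p under 0.05 as well, while that of *cpr-3* was 0.257. *cpr-2* was called lower with UA in the block fit only (adjusted p = 0.0175 by edgeR). It was low and scattered, at 2.49 ± 2.10 CPM in UA and 5.93 ± 5.11 CPM in control (SD, n = 4 each), and overlapped between the conditions. Of 7 tested genes for heme handling, the setting in which *asp-10* is known, none passed in either direction, and the lowest unadjusted p by edgeR was 0.16045.

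A list of 8 transcription factors of the gut and lysosome was chosen in the same way. Of these, 3 were higher with UA (4.12% of all genes were) and 5 did not pass. With the replicate block, *elt-4*, a further GATA factor gene at a log2 fold change of -0.93 without the block, was called lower as well. It was only 0.324 ± 0.221 CPM in UA and 0.620 ± 0.267 CPM in control (SD, n = 4 each) and overlapped between the conditions. *elt-2*, the main GATA factor of the intestine, was 8.51 ± 1.22 CPM in UA and 5.57 ± 1.13 CPM in control (SD, n = 4 each), or 0.61 higher on the log2 scale (adjusted p = 0.343 by edgeR, standard error 0.17). *pqm-1*, a zinc finger factor active in the intestine, was 0.34 higher on that scale (adjusted p = 0.422 by edgeR, standard error 0.10), and *mxl-3*, a repressor of lysosomal lipase genes, 0.49 higher (adjusted p = 0.606 by edgeR, standard error 0.19). *hlh-30*, the nematode TFEB factor that drives lysosomal genes, was at 0.21 (standard error 0.14) and did not pass. None of these factors reached an adjusted p under 0.05, with or without the replicate block.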

How the data were processed

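The authors aligned filtered reads of stranded poly(A) libraries to WBcel235 with HISAT and counted mapped fragments on RefSeq genes with featureCounts 1.6.2. The deposited counts are raw, and the deposited gene lengths are summed exons. Of 46928 identifiers, 46925 matched the RefSeq gene table of the same assembly.

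Counts were filtered with filterByExpr, TMM-normalized and tested with edgeR 4.0.16 (quasi-likelihood F test, condition as the term) in R 4.3.3, with Benjamini-Hochberg adjustment over all 13720 genes. DESeq2, the tool of the study's methods, was run as an alternative (version 1.42.0), besides other size factors, no filter, each set of replicates and each library left out. The pipeline was tested on simulated data. Log2 CPM carried a prior count of 2. The biological coefficient of variation was 0.16. Deviations of same-numbered libraries from their group means correlated at 0.191 to 0.353 across genes, so a replicate block was fitted too. Other pairs within a set of replicates correlated as well (0.15 to 0.333), and 2 of the 4 UA libraries correlated best with their own number, so the block also takes up the sets. No library repeated another of the same condition (chi-square per degree of freedom at least 7.5), and pairs across conditions were not compared in this way. Replicates were separate populations.

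The named genes are the 10 genes, the other *asp* genes, the 5 genes nearest *asp-17*, and genes of 4 lists past the thresholds. Other list genes and the cell type markers named were outside this rule and were chosen after their values were seen. Members and lists were chosen with earlier results of these data known. The reads and the sequences of the genes were not used here.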

Additional observations from a re-analysis of the deposited data

How the results depend on the processing

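The calls of *asp-5*, *asp-14* and *asp-17* at the study's thresholds were kept under all 16 alternatives run: size factors of DESeq2, DESeq2 itself, no filter on low counts, the replicate block, the set of replicates as a covariate, each set alone, each of the 8 libraries left out, and counts halved, an alternative chosen after seeing the data. Only replicates 3 and 4 alone gave another count, 6 genes. The genes were gathered with this contrast in these libraries known. The alternatives therefore show how the calls depend on the processing and are no further evidence for them. At an adjusted p under 0.05, where *asp-17* was called throughout, 2 genes were called by DESeq2 and without the filter (*asp-14* joining) and 3 with the replicate block, with the set as a covariate and in either set alone (*asp-5* and *asp-14* joining). The interaction was called for 2 genes by DESeq2 and without the filter, and for 0 to 2 genes with a library left out, with 2 only without control replicate 4. The lowest adjusted p of the 10 genes for the interaction by edgeR was between 1.96e-05, without the filter, and 0.71, without UA replicate 2. Over all genes, 13 were called at an adjusted p under 0.05 in the chosen fit, 169 by DESeq2, 45 without the filter, 115 with the replicate block, 219 with the set as a covariate, 546 in replicates 1 and 2 and 26 in replicates 3 and 4, and 5 to 16 with a library left out. At the study's thresholds these were 778 in the chosen fit and 1616 in replicates 1 and 2. The interaction was called for 11 genes in the chosen fit, 135 by DESeq2, 448 without the filter and 23 with the block, and for 0 to 492 with a library left out. The cause of these shifts was not tested. None of the called fold changes changed sign in any alternative. With each library left out, the log2 fold change was 1.65 to 1.94 for *asp-17*, -1.49 to -1.11 for *asp-14* and -0.70 to -0.48 for *asp-5*. Among genes not called, *asp-1* turned to 0.06 without control replicate 3 and 0.14 in replicates 1 and 2, *asp-10* turned to 0.03 in replicates 3 and 4, and *asp-2* ranged from -0.05 to 0.13. Each of the 10 genes had at least 511 counts in every library, whereas differences in the 6 *asp* genes left untested, with at most 44 counts each over the 8 libraries, were not detectable at this depth.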

Other observations

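Low counts in this table were mostly even. Of 45403 values between 1 and 20, 77.1% were even, and a count of 2 occurred 12135 times, against 4477 times for a count of 1. The counts of *asp-15*, *asp-16*, *asp-18* and *asp-19* were even in all 8 libraries. How each read of a pair entered the counts was not tested. With halved counts, chosen as an alternative after seeing the data, the same 3 of the 10 genes were called at the study's thresholds and *asp-17* at an adjusted p under 0.05.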
